A study of Mus musculus with 2 samples.

Results

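The genes described here make, modify and process the lipids of the epidermal permeability barrier. They were chosen by name: every gene probe on both arrays whose gene name equals one of 53 listed names, which stand for 46 genes because some carry an older and a newer name. Of these, 40 genes were found under a listed name, on 66 probes, among 21337 named genes on the array. Expression of 36 of the 40 could be tested, and the probes of Elovl2, Elovl3, Fa2h and Alox12e were not well above background often enough in either channel to be tested. The array carries 4 further genes, Abca12, Cyp4f39, Sgms1 and Sgms2, only under older names; they fall outside the rule and are described apart. No probe was found for Cers3 and Pnpla1 under a listed or updated name, so they could not be tested.

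The study compared total RNA of mouse keratinocytes labelled as a Chuk-LoxP mutant with that of wild-type mouse keratinocytes. The mutant RNA is called labelled Chuk-deleted here, which is a reading of that label. Chuk encodes IKK alpha, a kinase needed for terminal differentiation of the epidermis. Each of 2 two-colour Agilent arrays on 1 slide held both RNAs: RNA labelled Chuk-deleted (a Chuk-LoxP mutant) in the Cy5 channel, and RNA labelled wild type in the Cy3 channel. The labels state no Cre driver, strain, age or culture time, and do not say whether the arrays used separate cultures or animals, so p-values reflect array-to-array spread alone, and that spread may be technical. The dyes run the same way round on each array, so a dye effect on a probe and a difference between the RNAs cannot be told apart.

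In the epidermis, keratinocytes build long-chain and very long-chain fatty acids with fatty acid synthase, desaturases and the ELOVL elongases. Serine palmitoyltransferase, the ceramide synthases and the dihydroceramide desaturases join these to sphingoid bases as ceramides. Differentiating cells glucosylate or convert the ceramides to sphingomyelin, load them into lamellar granules through ABCA12 and release them at the top of the granular layer. There the sugar and phosphocholine groups are removed, and the ceramides form the lamellae between corneocytes. An omega-hydroxylated acylceramide made with ELOVL4 and CYP4F39 is oxidised by the lipoxygenases ALOX12B and ALOXE3 and attached to the corneocyte envelope.

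The label was checked on Chuk itself. One Chuk probe gave normalised signals of 2304 and 2256 on arrays 1 and 2 for RNA labelled Chuk-deleted, against 1392 and 1343 for RNA labelled wild type. The other gave 641 and 548 for RNA labelled Chuk-deleted, against 337 and 320 for RNA labelled wild type. Both probes thus gave more signal for RNA labelled Chuk-deleted, by 0.74 ± 0.02 and 0.85 ± 0.11 on the log2 scale (SD, n = 2; limma with Benjamini-Hochberg adjustment, adjusted p = 1.04e-04 and 1.05e-04). This goes against the label, unless the probes lie outside the deleted part, which the sources used here do not give, so every direction below is given for the RNA as labelled. The Chuk excess is close in size to the mean log2 ratio of the spike-in controls, 0.68 and 0.84 on arrays 1 and 2. Its size therefore depends on how the arrays are centred, and Chuk under other centrings is not given here. All 10 listed keratinocyte markers, among them Krt5, Krt14 and Trp63, were measured above background; 6 were higher and 4, Epcam, Dsp, Cdh1 and Sfn, were lower in RNA labelled Chuk-deleted. All 9 tested markers of suprabasal and cornified keratinocytes were lower in RNA labelled Chuk-deleted, with summed signals of 7585 and 4401 against 32173 and 43912 for RNA labelled wild type. Of 12 fibroblast markers, 10 were higher (summed signals 139743 and 139173 in RNA labelled Chuk-deleted, 78093 and 65419 in RNA labelled wild type), and of 10 melanocyte markers, 9 were lower (21589 and 19081 in RNA labelled Chuk-deleted, 50462 and 51399 in RNA labelled wild type). Fewer cells of a type and less RNA per cell cannot be told apart in such bulk RNA, and the part of these marker shifts in the results below was not tested.

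Values below are log2 ratios of the Cy5 signal (labelled Chuk-deleted) over the Cy3 signal (labelled wild type) after loess normalisation within each array, or the normalised signals of each channel in arbitrary units, which include an offset of 50. A gene is called higher or lower where limma's adjusted p, over all 23540 probes tested, is at most 0.05; with several probes, the brightest stands for the gene. The zero point of the ratios depends on how the arrays are centred. Loess put the median of all 13758 genes tested at 0.02, centring on all gene probes put it at 0.55, and subtracting the spike-in control mean of each array put it at -0.74. Changes within these shifts can turn sign with the centring.

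Of the 36 tested barrier lipid genes, 13 were higher and 16 were lower in RNA labelled Chuk-deleted, and 7 were not called. Over all genes tested, 33% were called higher and 28.3% lower, beside 36.1% and 44.4% of the barrier lipid genes. Counted in either direction, 29 of the 36 were called, beside 61.2% of all genes. The median log2 ratio of the barrier lipid genes was 0.0014, beside 0.02 for all genes. With all gene probes as the centre the calls were 23 higher and 7 lower, and with spike-in centring they were 1 higher and 34 lower. The large differences were on the lower side: 5 of 36 genes (13.9%) were at least 2-fold lower on both arrays, Degs2, Elovl4, Acer1, Elovl7 and Dgat2, beside 3.21% of all genes; spike-in centring gave 11 such genes and all gene probes as the centre gave 4, without Dgat2. At least 2-fold higher on both arrays was 1 gene, Smpd3 (2.78%), beside 1.5% of all genes; this rests on the brightest Smpd3 probe, and with the mean over probes the count was 0. With the 4 genes under older names included, 14 of 40 were higher, 18 lower and 7 at least 2-fold lower.

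**Figure D1:**
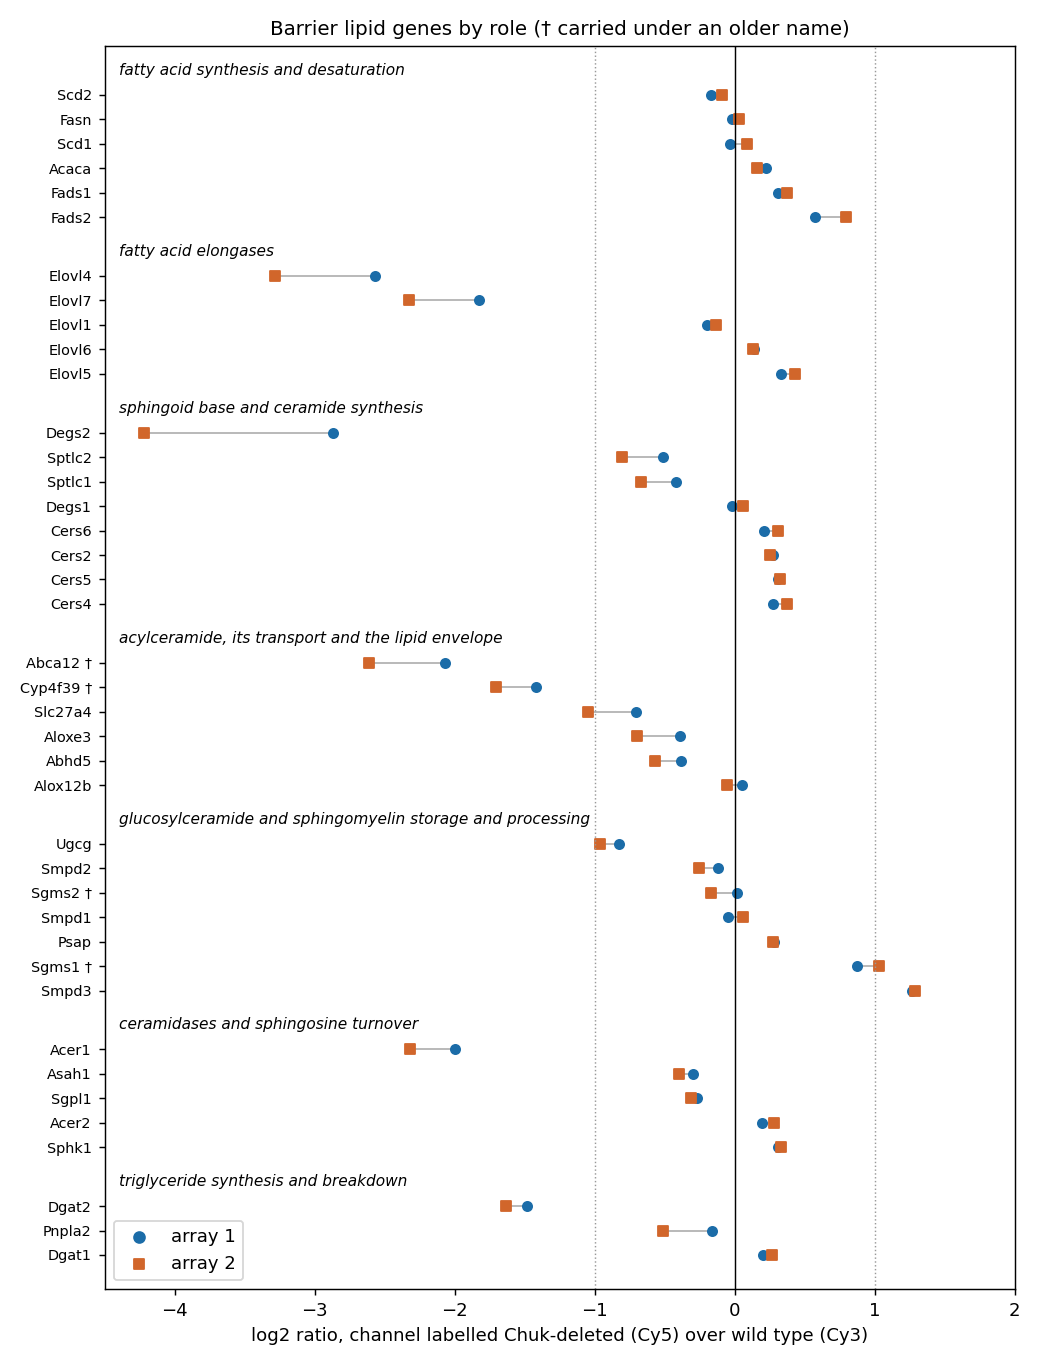
Log2 ratio of RNA labelled Chuk-deleted (Cy5) over RNA labelled wild type (Cy3) on array 1 (circles) and array 2 (squares) for each tested barrier lipid gene, grouped by role; dotted lines mark a 2-fold difference and a dagger marks genes carried under an older name. In 5 of the 7 roles, counting genes under older names, 1 or more genes lie beyond the 2-fold line on the lower side on both arrays, beside neighbours that lie near 0.

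The promoters of 4 of the 5 genes that were at least 2-fold lower are shown, and they were chosen by that fall alone. None is listed for Dgat2 in the promoter source used. Each run is the 250 bases before the RefSeq start of the gene (GRCm38.p6), 5′ to 3′ on the gene's strand, with capitals on every match to a GC box (GGGCGG) or to the KLF motif CCACCC on either strand. The windows are chr12:108702307-108702556 (minus strand) for Degs2, chr9:83806306-83806555 (minus) for Elovl4, chr17:56982127-56982376 (minus) for Acer1 and chr13:108214154-108214403 (plus) for Elovl7.
Degs2: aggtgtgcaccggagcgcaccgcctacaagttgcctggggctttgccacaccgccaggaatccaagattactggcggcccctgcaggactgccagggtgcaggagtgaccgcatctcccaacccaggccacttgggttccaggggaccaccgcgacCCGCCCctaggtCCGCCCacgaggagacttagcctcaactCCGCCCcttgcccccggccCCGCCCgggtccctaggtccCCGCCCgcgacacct
Elovl4: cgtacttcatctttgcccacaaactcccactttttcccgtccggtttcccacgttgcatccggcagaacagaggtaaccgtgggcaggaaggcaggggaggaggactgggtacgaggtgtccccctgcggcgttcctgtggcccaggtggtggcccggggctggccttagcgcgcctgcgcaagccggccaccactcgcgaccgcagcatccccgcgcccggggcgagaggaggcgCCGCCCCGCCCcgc
Acer1: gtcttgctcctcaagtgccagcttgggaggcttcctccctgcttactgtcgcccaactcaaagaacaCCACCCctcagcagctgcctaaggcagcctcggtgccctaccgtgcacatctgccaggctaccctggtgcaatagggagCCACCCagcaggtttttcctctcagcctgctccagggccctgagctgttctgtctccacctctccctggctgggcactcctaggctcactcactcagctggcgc
Elovl7: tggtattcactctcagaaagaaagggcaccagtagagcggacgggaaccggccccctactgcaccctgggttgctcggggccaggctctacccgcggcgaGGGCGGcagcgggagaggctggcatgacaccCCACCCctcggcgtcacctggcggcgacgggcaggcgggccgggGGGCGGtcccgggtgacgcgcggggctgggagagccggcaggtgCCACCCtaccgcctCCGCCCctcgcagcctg
The Degs2 window holds 5 GC boxes, the Elovl4 window 2 that overlap, and the Elovl7 window 3 GC boxes and 2 CCACCC matches. The Acer1 window holds 2 CCACCC matches and no GC box. Over 27025 RefSeq promoter windows of the same length, 32.9% hold a GC box and 27.7% hold CCACCC. Of the 28 barrier lipid genes called and uncalled that had a window, 19 held a GC box and 10 held CCACCC. The AP-1 letters TGANTCA (in 6.87% of all windows), the kappaB motif (0.337%), CCAAT (34.5%), TATAAA (13%) and the grainyhead-like letters AACCGGTT (0.122%), searched on both strands, are in none of the 4 windows. A match is a description of letters and not a site. The windows are rich in G and C, at 69.2% for Degs2, 69.6% for Elovl4, 61.6% for Acer1 and 73.6% for Elovl7.

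The genes of fatty acid synthesis and desaturation differed little. Of 6 tested, 3 were higher (Fads2, Fads1 and Acaca), none was lower and 3 were not called (Fasn, Scd1 and Scd2). Over all genes, 33% were higher and 28.3% lower. Fads2, the delta-6 desaturase of polyunsaturated fatty acids, had signals of 7840 and 12140 in RNA labelled Chuk-deleted, against 5272 and 7009 in RNA labelled wild type. It was 1.60-fold higher (log2 ratios 0.57 and 0.79, mean 0.68 ± 0.16, SD, n = 2; limma adjusted p = 3.45e-04), but -0.08 with spike-in centring. Fads1, the delta-5 desaturase and its neighbour on chromosome 19, had 2081 and 2759 in RNA labelled Chuk-deleted, against 1677 and 2134 in RNA labelled wild type, a 1.27-fold rise (adjusted p = 0.00195) that turned to -0.42 with spike-in centring. Both desaturase genes were higher on each array. Acaca, the cytosolic acetyl-CoA carboxylase that makes malonyl-CoA, had 120 and 108 in RNA labelled Chuk-deleted, against 103 and 96.4 in RNA labelled wild type, a channel in which neither array measured it well above background. Its difference was 1.14-fold by estimate (0.19 ± 0.05, adjusted p = 0.0189), and its other probes were not called. The log2 ratio of Acaca was -0.56 under spike-in centring and -0.34 under centring on tested probes.

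Fasn, the fatty acid synthase, had 68946 and 77290 in RNA labelled Chuk-deleted, against 69899 and 75784 in RNA labelled wild type. Its mean log2 ratio was 0.00, with a 95% interval of -0.12 to 0.13 (adjusted p = 0.948); its second probe was higher by 0.27. Scd1 and Scd2, stearoyl-CoA desaturases that make monounsaturated fatty acids, lie close together on chromosome 19 and were not called. Scd1 had 3687 and 4105 in RNA labelled Chuk-deleted, against 3778 and 3856 in RNA labelled wild type (0.03, 95% interval -0.11 to 0.17, adjusted p = 0.696). Scd2 had 84998 and 108841 in RNA labelled Chuk-deleted, against 95773 and 115887 in RNA labelled wild type (-0.13 ± 0.06, adjusted p = 0.0748). Fasn, Scd1 and Scd2 lay near 0 on both arrays on the loess scale, but at 0.89, 0.70 and 0.78 with all gene probes as the centre.

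The elongases split widely. Of 5 tested, 3 were lower (Elovl4, Elovl7 and Elovl1), 1 was higher (Elovl5) and 1 was not called (Elovl6). Over all genes, 28.3% were lower and 33% higher. Elovl4, which makes the ultra-long acyl chains of barrier acylceramides, had signals of 472 and 200.5 in RNA labelled Chuk-deleted, against 2804 and 1951 in RNA labelled wild type. The difference was larger on array 2, where the ratios of all genes tested also spread more widely. Elovl4 was 7.61-fold lower (log2 ratios -2.57 and -3.28, mean -2.93 ± 0.50; limma adjusted p = 4.90e-05) and ranked 47th from the lowest of 13758 genes. This call is lost (adjusted p = 0.0594) where the spread is let to follow intensity with robust estimation.

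Elovl7, an elongase of saturated long-chain acyl-CoAs, had 5588 and 2974 in RNA labelled Chuk-deleted, against 19768 and 14946 in RNA labelled wild type. It was 4.22-fold lower (-1.82 and -2.33, mean -2.08 ± 0.36; adjusted p = 5.46e-05), and its second probe was lower by 1.48 ± 0.09 on the log2 scale. Elovl4 and Elovl7 stayed lower under each of the 10 alternatives computed. Elovl1, an elongase of very long chains, had 13859 and 23751 in RNA labelled Chuk-deleted, against 15919 and 26052 in RNA labelled wild type, a small fall (-0.17 ± 0.05, adjusted p = 0.0333) that turned to 0.61 with all gene probes as the centre. Elovl5, an elongase of polyunsaturated chains, had 6886 and 9354 in RNA labelled Chuk-deleted, against 5469 and 6935 in RNA labelled wild type, a rise (0.38 ± 0.07, adjusted p = 0.00147) that turned to -0.38 with spike-in centring. Elovl6, which elongates palmitate, had 4204 and 4093 in RNA labelled Chuk-deleted, against 3813 and 3736 in RNA labelled wild type (0.14, adjusted p = 0.058). On each array the differences of Elovl4 and Elovl7 were larger than that of any other tested elongase.

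**Figure D2:**
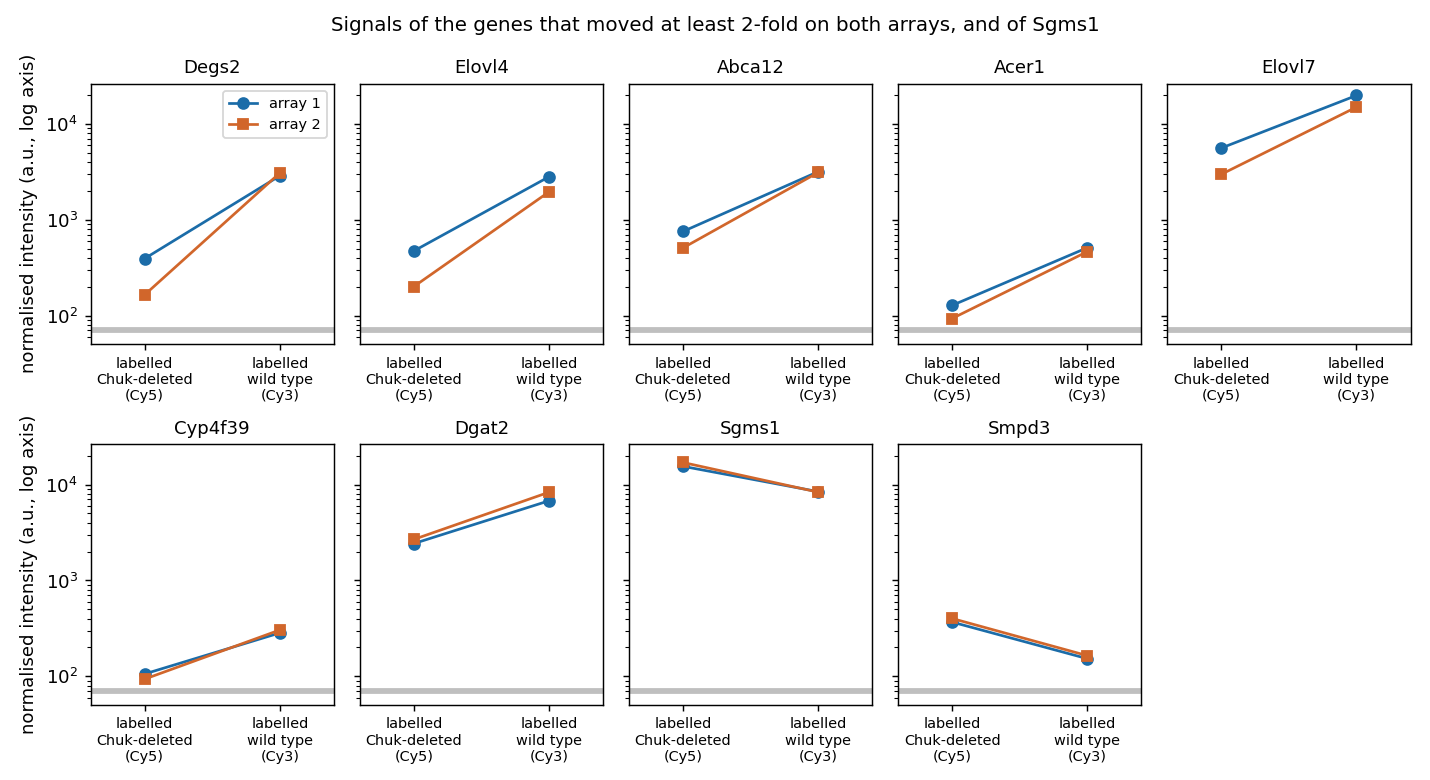
Normalised signal (arbitrary units, log axis, offset of 50 included) in the channel labelled Chuk-deleted (Cy5, left) and in the channel labelled wild type (Cy3, right) on array 1 (circles) and array 2 (squares), for genes at least 2-fold apart on both arrays and for Sgms1; the grey band spans the lowest signals that counted as well above background (67.2 to 74.3). Degs2, at 393 and 165 against 2872 and 3073, has the steepest lines, and Smpd3 and Sgms1 slope the other way.

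Among genes of sphingoid base and ceramide synthesis, the 4 tested ceramide synthases, without Cers3, rose slightly on the loess scale. The first enzyme of the pathway and the phytoceramide enzyme fell. Of 8 tested, 4 were higher and 3 were lower, beside 33% and 28.3% of all genes. Degs2, the desaturase and hydroxylase that makes phytoceramides, had signals of 393 and 165 in RNA labelled Chuk-deleted, against 2872 and 3073 in RNA labelled wild type. It was 11.7-fold lower (-2.87 and -4.22, mean -3.55 ± 0.96; limma adjusted p = 1.50e-04), the lowest ratio of the tested barrier lipid genes and 17th from the lowest of all genes. The signals labelled wild type were close on the arrays while the signals labelled Chuk-deleted differed, and the call is lost (adjusted p = 0.125) with the spread following intensity. Degs1, which makes the double bond of ordinary ceramides, had 15679 and 16867 in RNA labelled Chuk-deleted, against 15902 and 16189 in RNA labelled wild type, and was not called (adjusted p = 0.771).

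Sptlc1 and Sptlc2 encode subunits of serine palmitoyltransferase, the committing enzyme of sphingolipid synthesis. Sptlc2 had 6165 and 6877 in RNA labelled Chuk-deleted, against 8803 and 11987 in RNA labelled wild type (-0.51 and -0.80, mean -0.66 ± 0.20; adjusted p = 6.70e-04), and its other probes lay at -0.94 and -1.25. Sptlc1 had 3682 and 2001 in RNA labelled Chuk-deleted, against 4927 and 3178 in RNA labelled wild type (-0.42 and -0.67, mean -0.54 ± 0.17; adjusted p = 0.00102). Both fell together on each array, but with all gene probes as the centre the values were 0.06 for Sptlc2 and 0.12 for Sptlc1.

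Cers2, Cers4, Cers5 and Cers6 encode ceramide synthases that differ in the length of the acyl chain they attach. Cers4 had 2927 and 4224 in RNA labelled Chuk-deleted, against 2423 and 3260 in RNA labelled wild type (0.32 ± 0.07, adjusted p = 0.00295), and its other probes lay at 0.49 and 0.62. Cers5 had 1920 and 2487 in RNA labelled Chuk-deleted, against 1548 and 1988 in RNA labelled wild type (0.32 ± 0.01, adjusted p = 0.00238). These were small differences, alike on both arrays. Cers2 had 7705 and 5976 in RNA labelled Chuk-deleted, against 6364 and 5021 in RNA labelled wild type (0.26 ± 0.02, adjusted p = 0.00514). Cers6 had 21467 and 24662 in RNA labelled Chuk-deleted, against 18549 and 19947 in RNA labelled wild type (0.26 ± 0.07, adjusted p = 0.00717). All 4 were negative with spike-in centring, between -0.50 for Cers6 and -0.43 for Cers4.

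Of the genes of acylceramide handling and the lipid envelope found under listed names, 3 of 4 tested were lower and none was higher. Over all genes, 28.3% were lower and 33% higher. Slc27a4, the fatty acid transport protein and acyl-CoA synthetase FATP4, had 533 and 522 in RNA labelled Chuk-deleted, against 870 and 1082 in RNA labelled wild type (-0.71 and -1.05, mean -0.88 ± 0.24; limma adjusted p = 3.26e-04). Aloxe3, the epidermal lipoxygenase eLOX3, had 372 and 322 in RNA labelled Chuk-deleted, against 489 and 522 in RNA labelled wild type (-0.39 and -0.70, mean -0.55 ± 0.21; adjusted p = 0.00157), but -0.08 with all gene probes as the centre (adjusted p = 0.526). Abhd5, the cofactor CGI-58 of acylceramide and triglyceride lipases, had 601 and 326.5 in RNA labelled Chuk-deleted, against 783 and 483 in RNA labelled wild type (-0.47 ± 0.13, adjusted p = 0.00109), with its second probe at -0.92, and it was at 0.02 with all gene probes as the centre. Each of the 3 was lower on both arrays, with the larger difference on array 2.

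Alox12b, which lies next to Aloxe3 on chromosome 11 and acts one step before it, had 134 and 179 in RNA labelled Chuk-deleted, against 129 and 185.5 in RNA labelled wild type, and was not called (95% interval -0.14 to 0.13, adjusted p = 0.983). Its second probe, in which the signal labelled Chuk-deleted was well above background on 1 array, was called lower at -0.47 ± 0.01. Alox12b was also called lower with the mean over probes (-0.24, adjusted p = 0.00874), with tested probes as the centre (-0.30, adjusted p = 0.0054) and with spike-in centring (-0.76), and it lay at 0.17 with all gene probes as the centre. The difference between the neighbouring lipoxygenase genes was not tested.

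Abca12 and Cyp4f39, carried under older names, were lower as well. Abca12, the lamellar granule lipid transporter, had 754 and 508 in RNA labelled Chuk-deleted, against 3167 and 3109 in RNA labelled wild type, a 5.07-fold difference (-2.07 and -2.62, mean -2.34 ± 0.38; adjusted p = 4.86e-05). Its other probes were lower by less, at -0.55 and -1.03, and the mean over its probes was -1.31. Cyp4f39, the omega-hydroxylase of ultra-long fatty acids, had 106 and 93.5 in RNA labelled Chuk-deleted, where it was well above background on 1 array, against 284 and 304 in RNA labelled wild type. It was called lower (-1.56 ± 0.20, adjusted p = 4.12e-05), but its size depends on the background correction, and the scanner software's ratio was -2.88. Both remained lower under each alternative that measured them.

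The genes of glucosylceramide and sphingomyelin moved both ways: of 5 tested, 2 were higher (Psap and Smpd3) and 2 were lower (Ugcg and Smpd2). Over all genes, 33% were higher and 28.3% lower. Smpd3 was called higher on its brightest probe and lower on its other probes. Ugcg, the glucosylceramide synthase, had 1452 and 2019 in RNA labelled Chuk-deleted, against 2572 and 3939 in RNA labelled wild type. It was 1.86-fold lower (-0.83 and -0.96, mean -0.89 ± 0.10; limma adjusted p = 8.61e-05), and its other probes lay at -0.92 and -0.44. Sgms1, the Golgi sphingomyelin synthase that uses the same ceramide and was carried under an older name, had 15508 and 17017 in RNA labelled Chuk-deleted, against 8444 and 8343 in RNA labelled wild type. It was 1.94-fold higher (0.88 and 1.03, mean 0.95 ± 0.11; adjusted p = 7.67e-05), with its second probe at 0.47, and the call is lost with spike-in centring (0.19, adjusted p = 0.11). Ugcg and Sgms1 thus differed in opposite directions on both arrays. Sgms2, the plasma membrane sphingomyelin synthase, had 335 and 291 in RNA labelled Chuk-deleted, against 332 and 327 in RNA labelled wild type, and was not called (-0.08, adjusted p = 0.331). Its second probe was called lower (-0.30 ± 0.10, adjusted p = 0.00532), as was the mean over its probes (-0.19, adjusted p = 0.0403), while all gene probes as the centre gave 0.34.

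Smpd3, the neutral sphingomyelinase 2, gave opposite calls on its probes. The brightest had 368 and 401 in RNA labelled Chuk-deleted, against 153 and 164 in RNA labelled wild type, 2.42-fold higher (1.27 and 1.29, mean 1.28 ± 0.01; adjusted p = 2.80e-05). Another had 72.0 and 77.6 in RNA labelled Chuk-deleted, against 146 and 143 in RNA labelled wild type. That probe was 1.93-fold lower by estimate, and neither array measured its signal labelled Chuk-deleted well above background. The third had 89.2 and 82.5 in RNA labelled Chuk-deleted, against 153 and 164 in RNA labelled wild type (-0.88 ± 0.15), and the mean over the probes was -0.19 (adjusted p = 0.0176). The direction of Smpd3 is therefore uncertain, and whether the probes read different transcripts was not tested.

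Psap, the precursor of the saposins that activate the glucosylceramide-cleaving enzyme, had 15673 and 12739 in RNA labelled Chuk-deleted, against 12906 and 10548 in RNA labelled wild type. It rose on the loess scale (0.28 ± 0.01, adjusted p = 0.00416) and lay at -0.48 with spike-in centring. Smpd1, the acid sphingomyelinase, had 6345 and 10862 in RNA labelled Chuk-deleted, against 6552 and 10433 in RNA labelled wild type, and was not called (adjusted p = 0.933). Smpd2, a neutral sphingomyelinase, had 350 and 341 in RNA labelled Chuk-deleted, against 380 and 406 in RNA labelled wild type (-0.19 ± 0.09, adjusted p = 0.0314), and was at 0.26 with all gene probes as the centre.

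Of the barrier lipid genes, the 5 tested that cleave ceramide or act on sphingosine were all called, 3 lower and 2 higher. Over all genes, 61.2% were called in either direction. Acer1, the alkaline ceramidase of the upper epidermis, had 128 and 93.2 in RNA labelled Chuk-deleted, against 510 and 464.5 in RNA labelled wild type. It was 4.46-fold lower (-1.998 and -2.32, mean -2.16 ± 0.23; limma adjusted p = 2.54e-05), on its single probe, and 121st from the lowest of all genes. The size depends on the background correction for this dim signal: the log2 ratio was -2.60 with an offset of 16 and -3.36 in the scanner software's ratio. Asah1, the lysosomal acid ceramidase, had 3985 and 2756 in RNA labelled Chuk-deleted, against 4903 and 3627 in RNA labelled wild type (-0.35 ± 0.07, adjusted p = 0.00214). Acer1 was lower under each alternative, whereas Asah1 was at 0.32 with all gene probes as the centre. Acer2, a Golgi alkaline ceramidase, had 238 and 400.2 in RNA labelled Chuk-deleted, against 208 and 330 in RNA labelled wild type (0.24 ± 0.06, adjusted p = 0.00963), but another probe was called lower at -0.45, and spike-in centring gave -0.52.

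Sphk1, the kinase that makes sphingosine 1-phosphate, had 6238 and 7671 in RNA labelled Chuk-deleted, against 5036 and 6111 in RNA labelled wild type (0.32 ± 0.01, adjusted p = 0.00234; -0.44 with spike-in centring). Sgpl1, the lyase that degrades it, had 8318 and 9384 in RNA labelled Chuk-deleted, against 10021 and 11673 in RNA labelled wild type (-0.29 ± 0.03, adjusted p = 0.00355; 0.44 with all gene probes as the centre). The kinase was higher and the lyase lower on each array on the loess scale.

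For triglycerides, 2 of 3 tested genes were lower, beside 28.3% of all genes. Dgat2, an acyltransferase that makes triglyceride from diacylglycerol and is needed for skin lipids in mice, had 2425 and 2679 in RNA labelled Chuk-deleted, against 6775 and 8325 in RNA labelled wild type. It was 2.95-fold lower (-1.48 and -1.64, mean -1.56 ± 0.11; limma adjusted p = 2.54e-05), and its other probes lay at -1.52 and -1.29. All 3 probes of Dgat2 were lower. Dgat1, an unrelated enzyme with the same reaction, had 775 and 902 in RNA labelled Chuk-deleted, against 674 and 751 in RNA labelled wild type (0.23 ± 0.04, adjusted p = 0.00927), with -0.52 under spike-in centring and -0.16 on its second probe. Pnpla2, the adipose triglyceride lipase, had 2922 and 2004 in RNA labelled Chuk-deleted, against 3267 and 2852 in RNA labelled wild type (-0.34 ± 0.25, adjusted p = 0.016), and was at 0.31 with all gene probes as the centre. Beside these triglyceride genes, the sebaceous gland markers Awat2, Mc5r and Plin5 and the adipocyte markers Adipoq, Cd36, Cfd, Cidec, Lep, Plin1 and Retn were not well above background. The sebaceous markers Cidea and Krt79 were lower, with mean log2 ratios of -3.19 ± 1.42 and -3.08 ± 1.73, and the summed signals of that list were 16593 and 15200 in RNA labelled Chuk-deleted, against 32278 and 31008 in RNA labelled wild type. Their part in the fall of Dgat2 was not tested.

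**Figure D3:**
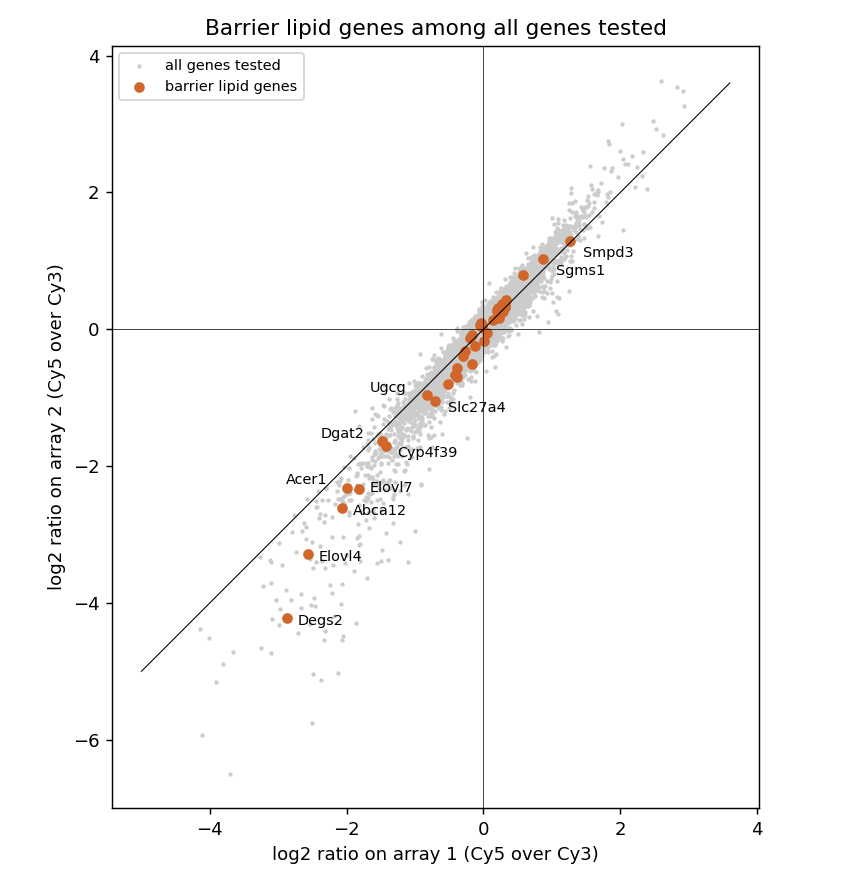
Log2 ratio (Cy5, labelled Chuk-deleted, over Cy3, labelled wild type) on array 1 (horizontal) and array 2 (vertical) for each of 13758 genes tested (grey) and the barrier lipid genes (orange), with the line of equal ratios. Of the 16 barrier lipid genes called lower, 15 lie further from 0 on array 2 than on array 1, as Degs2 does with -2.87 and -4.22.

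Array 2 gave the larger differences. Of the 16 genes called lower, 15 were further from 0 on array 2, and of the 13 called higher, 10 were. Over all genes tested, the SD of the log2 ratios was 0.46 on array 1 and 0.56 on array 2, so the wider spread was not limited to these genes. All 29 called genes had the same sign on both arrays, which a call on the mean of 2 arrays nearly ensures. Called or not, 31 of the 36 tested genes had the same sign, beside 12293 of all 13758.

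**Figure D4:**
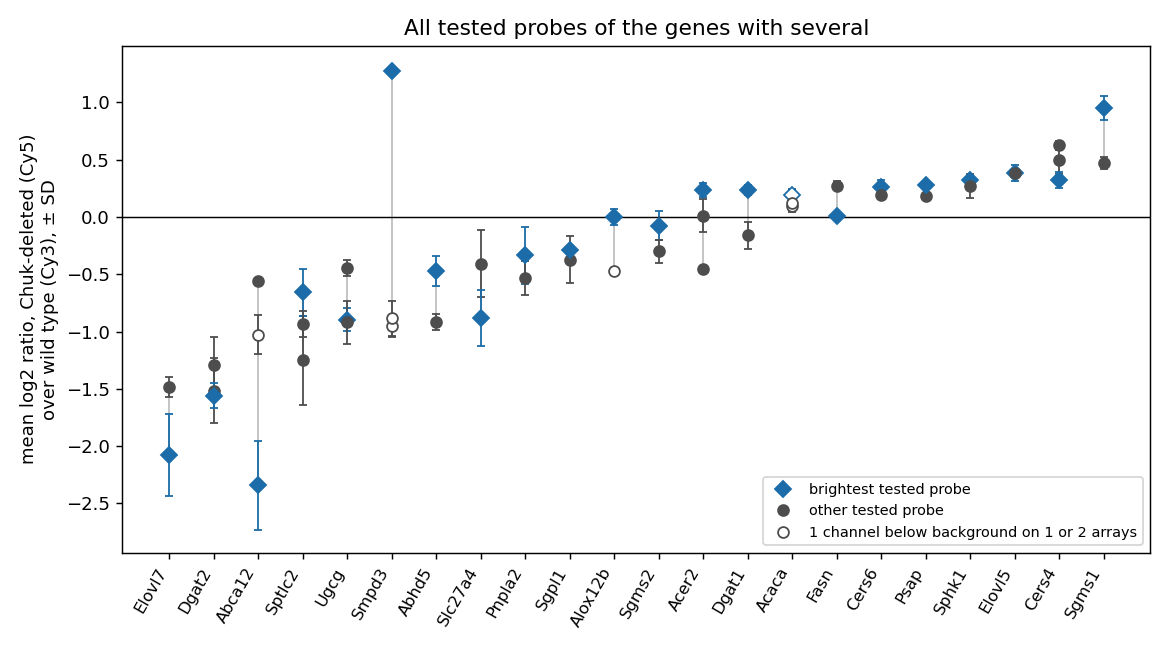
Mean log2 ratio (labelled Chuk-deleted over labelled wild type) ± SD over 2 arrays for each tested probe of barrier lipid genes with several; diamonds are the brightest probe, circles the others, and open symbols have 1 channel below background on 1 or 2 arrays. Dgat2 and Elovl7 keep their direction on every probe, while Smpd3 runs between 1.28 and -0.95.

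Several probes were tested for 19 of the 36 genes. Their mean ratios had the same sign in 16 genes and opposite signs in 3, Smpd3, Acer2 and Dgat1. In Smpd3 and Acer2 the probes were called in opposite directions. Elovl4, Degs2 and Acer1 rest on 1 probe each.

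**Figure D5:**
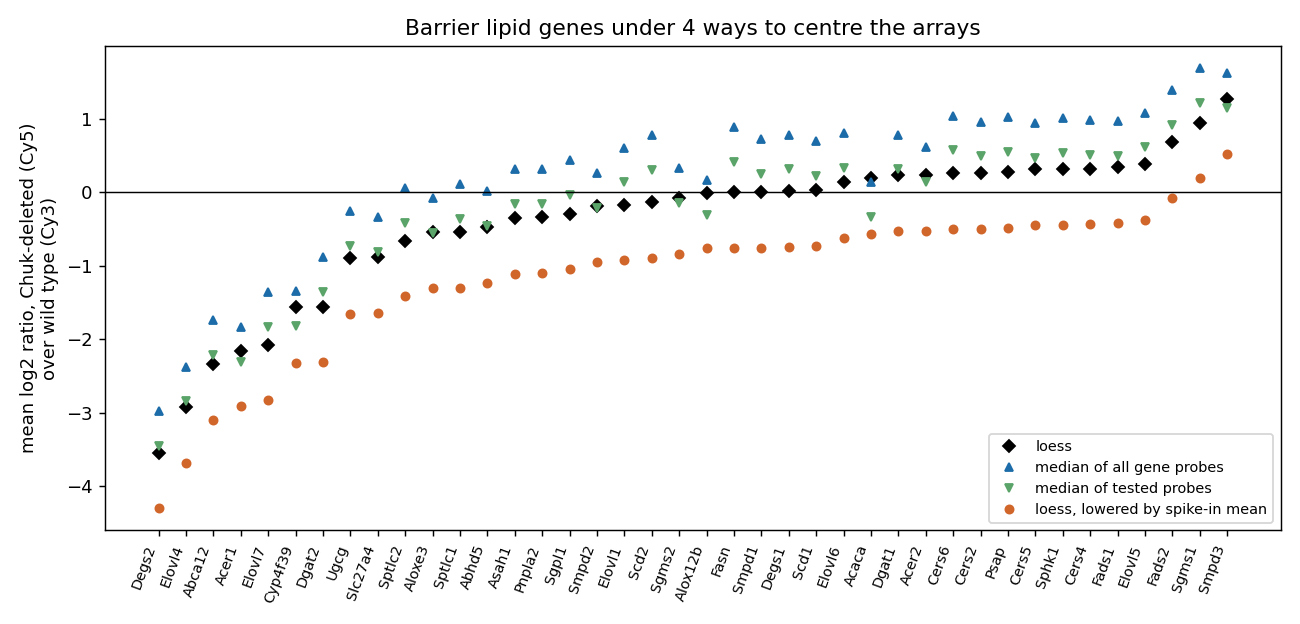
Mean log2 ratio (labelled Chuk-deleted over labelled wild type) of each barrier lipid gene under 4 ways to centre the arrays: loess (diamonds), median of all gene probes (upward triangles), median of tested probes (downward triangles) and loess lowered by the spike-in mean (circles). Degs2, Elovl4, Abca12, Acer1, Elovl7, Cyp4f39, Dgat2, Ugcg, Slc27a4 and Aloxe3 stay below 0 throughout and Sgms1 and Smpd3 stay above it, while other called genes cross 0 under at least 1 centring.

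Under all 4 centrings the ratios of Degs2 lay between -4.30 and -2.98, those of Elovl4 between -3.69 and -2.37, and those of Dgat2 between -2.32 and -0.88. Relative to the median of all genes, the median of the barrier lipid genes lay at -0.02 under loess and spike-in centring and at 0.06 under centring on all gene probes.

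Other genes of the same pathways, listed by function from textbook roles, gave more falls than rises. Of 67 listed, 56 were tested; 29 were lower (51.8%) and 11 were higher (19.6%), beside 28.3% and 33% of all genes, with a median log2 ratio of -0.23. At least 2-fold lower on both arrays were 7 (12.5%, beside 3.21% of all genes), and at least 2-fold higher was 1 (1.79%, beside 1.5%). The list was drawn up with earlier results of these data known. Lipm, an epidermal lipase family member, had ratios of -2.77 and -2.71 (-2.74 ± 0.04; limma adjusted p = 9.43e-06). Sult2b1, which makes cholesterol sulfate, had -2.03 and -2.54 (-2.29 ± 0.36, adjusted p = 4.49e-05), and Ephx3, an epoxide hydrolase that acts after the lipoxygenases, had -1.83 and -3.03 (-2.43 ± 0.85, adjusted p = 3.83e-04). These enzymes of late epidermal lipid handling were lower on both arrays. Sdr16c6, a short-chain dehydrogenase, had -1.70 and -3.63 (-2.66 ± 1.37, adjusted p = 0.00165), and Smpdl3b, a sphingomyelin phosphodiesterase-like protein, had -1.70 and -2.48 (-2.09 ± 0.55, adjusted p = 1.55e-04). The leading rise was Mogat2, a monoacylglycerol acyltransferase, with 1.61 and 1.77 (1.69 ± 0.11, adjusted p = 2.49e-05). Next came Acacb (0.68 ± 0.31), a mitochondrial acetyl-CoA carboxylase, Ephx2 (0.66 ± 0.07), a soluble epoxide hydrolase, Hacd1 (0.63 ± 0.12), a dehydratase of the elongation cycle, and Lpin1 (0.60 ± 0.06), a phosphatidate phosphatase. With all gene probes as the centre the counts were 13 lower and 32 higher, and with spike-in centring 51 lower and 1 higher.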

How the data were processed

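Total RNA of mouse keratinocytes was hybridised to 2 two-colour Agilent arrays. The deposited scanner files hold spot intensity in each channel and a log10 ratio, which per the file headers came from Agilent Feature Extraction, version 9.1.3.1. The deposited value table of log10 ratios equals the scanner's within 0.005, with a median of 0 on each array. From the deposited intensity, mean signals were corrected with normexp (offset 50) on the median local background and normalised by loess within each array in limma 3.58.1 (R 4.3.3), with control spots at weight 0 and outlier spots (51 and 18) left out. Spots were averaged per probe, and signals per channel were taken after loess and Aquantile. A probe was tested where, on each array, 1 or both channels were well above background (23540 of 41174 probes). The mean log2 ratio was tested against 0 with lmFit and eBayes, two-sided, and p-values were adjusted by Benjamini-Hochberg over every tested probe. The fit has 1 residual and 5.14 prior degrees of freedom, and the number of arrays limits the precision. Where a probe was not well above background in 1 channel on both arrays, its fold is an estimate that rests on a dim signal. Median gene spot signals were 218 and 171.5 in Cy5 and 109.9 and 95.2 in Cy3, and the share of gene spots well above background was 64.5% and 57.4% in Cy5 and 59.1% and 53.2% in Cy3.

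Array gene names were updated through a RefSeq table (GRCm38.p6) by accession for 23374 probes and by symbol or synonym for 9652; 1845 kept the file's name and 6303 had none. The genes, lists and tests were chosen with earlier results of these data known. Each tested gene is named with its role, other pathway genes where called with the 5 largest mean changes each way, and marker lists by counts. The steps were tested on simulated data. Alternatives were another offset, the software's log ratio, 3 other centrings, scaling between arrays, other filters, the mean over probes, each array alone and, added after seeing the data, a spread that follows intensity.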

Additional observations from a re-analysis of the deposited data

How the results depend on the processing

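The ratio within each array already pairs the RNAs by array, so no further block was fitted. Centring decided the counts. With each array centred on the median of all gene probes, 23 barrier lipid genes were higher and 7 lower, 32 other pathway genes higher and 13 lower, and 10323 of all genes higher and 991 lower, against 13 and 16, 11 and 29, and 4534 and 3888 with loess. Lowered by the spike-in mean (0.68 and 0.84 on arrays 1 and 2), these were 1 and 34, 1 and 51, and 281 and 12516. The median of the barrier lipid genes, 0.0014 with loess, was 0.62 with all gene probes as the centre, 0.14 with tested probes, -0.76 with spike-ins, -0.0583 with the software's log ratio and -0.15 with the mean over probes, and ran between -0.0407 and -0.0118 on single arrays. At least 2-fold higher were 2 genes with all gene probes as the centre, 0 with spike-ins and 0 with the mean over probes; at least 2-fold lower were 11 with spike-ins and 4 with all gene probes as the centre. Single arrays gave 1 gene at least 2-fold higher and 5 to 6 lower.

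With spike-in centring the sign turned for Acaca (-0.56), Fads1 (-0.42), Fads2 (-0.0756), Fasn (-0.75), Scd1 (-0.73), Elovl5 (-0.38), Elovl6 (-0.62), Cers2 (-0.49), Cers4 (-0.43), Cers5 (-0.44), Cers6 (-0.50), Degs1 (-0.74), Psap (-0.48), Smpd1 (-0.75), Acer2 (-0.52), Sphk1 (-0.44) and Dgat1 (-0.52). With all gene probes as the centre it turned for Scd2 (0.78), Elovl1 (0.61), Sptlc1 (0.12), Sptlc2 (0.0598), Abhd5 (0.0212), Smpd2 (0.26), Asah1 (0.32), Sgpl1 (0.44), Pnpla2 (0.31) and Sgms2 (0.34); Alox12b lay at 0.17, uncalled there and with loess. With tested probes as the centre it turned for Acaca (-0.34), Scd2 (0.31) and Elovl1 (0.14), and with the mean over probes for Smpd3 (-0.19) and Acer2 (-0.0671). The cause was not tested beyond the shift that each centring makes. Elovl4, Elovl7, Degs2, Acer1, Dgat2, Slc27a4, Ugcg and Aloxe3 kept their direction under each of 10 alternatives. With a spread that follows intensity, added after seeing the data, the calls of Elovl4 (adjusted p = 0.0594) and Degs2 (adjusted p = 0.125) were lost. The software's log ratio lost the calls of Elovl1, Smpd2, Acer2 and Pnpla2, and tested probes as the centre those of Acer2, Asah1, Sgpl1 and Pnpla2. All gene probes as the centre lost Acaca and Aloxe3, spike-ins Sgms1, the mean over probes Dgat1, and no filter Elovl1. Calls were also gained, by 6 genes with tested probes, 5 with all gene probes and 4 with the mean over probes. Only 2 arrays and 1 dye orientation limit these values, and no single array can be tested.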

Other observations

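Markers of other skin cell types that the text above does not describe gave mixed values. Of 6 tested macrophage and Langerhans cell markers, 4 were lower and 0 were higher, with a median log2 ratio of -0.70 and summed signals of 3469 and 3274 in RNA labelled Chuk-deleted, against 4766 and 4634 in RNA labelled wild type; Cd207, Cd74, Itgam and Ptprc were not well above background. Of 4 tested T cell markers, 2 were higher, Cd3e (0.21 ± 0.11) and Thy1, which is also counted among the fibroblast markers, and 0 were lower; Cd3g and Cd8a were not well above background. Of 2 tested endothelial markers, 1 was higher and 1 was lower, while Cdh5, Emcn, Pecam1, Tek and Tie1 were not well above background. Of the 3 tested adipocyte markers, Lpl and Fabp4 were higher and Pparg was lower.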
